A study of Mus musculus with 9 samples.

Results

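The levels of 10 endothelial genes were followed across 3 genotypes of Esrrg, the gene of the orphan nuclear receptor ERRγ, in fetal mouse heart. They are the receptor and marker genes Kdr, Flt1, Tek, Tie1, Pecam1, Cdh5, Eng, Nos3, Emcn and Vwf. They were chosen by name because Kdr was already known to be lower in these knockout arrays. Every probe set that the array's annotation gives to 1 of these symbols was taken, which made 15 of the 45101 probe sets and 10 of the 18193 genes on the array. The comparison asked whether the fall of Kdr was shared by other genes of the same cell type.

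RNA came from cardiac ventricles of male fetuses at embryonic stage E18.5, collected by caesarean section. The 3 genotypes were homozygous knockout (ERRg -/-, KO), heterozygous (ERRg +/-, HET) and wild type (ERRg +/+, WT), with 3 Affymetrix arrays of each. The labels name no driver line or tissue restriction for the deletion, no treatment, and no allele other than that of ERRg. They number the samples of a genotype as biological replicates and also name 3 ventricles per sample without saying whether these were pooled, so p-values reflect how these 3 arrays per genotype vary, which may be technical. Values are MAS5 signals, a linear brightness per probe set scaled on each array, and tests were run with limma on log2(signal + 16) over 13028 genes, each by its brightest probe set. A gene is called changed when its Benjamini-Hochberg adjusted p is below 0.05.

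Endothelial cells line every blood vessel and, as endocardium, the chambers of the heart. They sense vascular endothelial growth factor (VEGF) through the receptor tyrosine kinases KDR and FLT1, and angiopoietins through the TIE2 receptor encoded by Tek with its partner TIE1. PECAM1 and VE-cadherin (Cdh5) hold neighbouring cells together, endoglin (Eng) is a co-receptor for bone morphogenetic proteins, endothelial nitric oxide synthase (Nos3) makes the vasodilator nitric oxide, endomucin (Emcn) is a surface sialomucin, and von Willebrand factor (Vwf) binds platelets. ERRγ binds DNA as a regulator of oxidative metabolism genes in heart muscle.

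The promoters below are from RefSeq on GRCm38.p6, 250 bases before to 50 bases after an annotated start, and run 5′ to 3′ on the strand of the gene. For Kdr and Flt1 the RefSeq gene reaches beyond the window, to 75979072 and 147726438, so sequence at that outer end was not searched. Kdr is shown as the called gene, Flt1 as its partner VEGF receptor, and Emcn as the holder of the single match to the core ERR motif. Capitals mark matches, on either strand, to AAGGTCA (the core ERR motif), AGGAAG or CGGAAG (ETS motifs).
Kdr, chr5:75978406-75978705, minus strand: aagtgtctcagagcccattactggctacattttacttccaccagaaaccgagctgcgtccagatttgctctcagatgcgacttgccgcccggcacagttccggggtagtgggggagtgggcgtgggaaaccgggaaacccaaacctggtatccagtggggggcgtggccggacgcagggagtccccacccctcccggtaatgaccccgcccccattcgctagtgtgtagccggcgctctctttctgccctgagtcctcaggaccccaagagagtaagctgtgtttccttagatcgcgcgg
Flt1, chr5:147725962-147726261, minus strand: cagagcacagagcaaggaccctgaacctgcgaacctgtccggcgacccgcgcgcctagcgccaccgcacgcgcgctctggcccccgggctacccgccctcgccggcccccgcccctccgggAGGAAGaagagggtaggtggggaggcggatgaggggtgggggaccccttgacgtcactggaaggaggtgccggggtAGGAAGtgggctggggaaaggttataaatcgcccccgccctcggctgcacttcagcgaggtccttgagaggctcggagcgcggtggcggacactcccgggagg
Emcn, chr3:137340828-137341127, plus strand: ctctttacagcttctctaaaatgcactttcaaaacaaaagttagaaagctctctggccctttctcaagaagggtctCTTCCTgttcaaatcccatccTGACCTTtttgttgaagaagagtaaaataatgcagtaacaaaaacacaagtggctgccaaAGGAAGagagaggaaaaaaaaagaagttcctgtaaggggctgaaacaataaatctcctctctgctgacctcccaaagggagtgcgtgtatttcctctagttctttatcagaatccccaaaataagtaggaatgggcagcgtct
A promoter was in the table for 6 of the 10 genes (Kdr, Flt1, Tek, Tie1, Eng and Emcn). AAGGTCA stood in 1 of these 6 windows, that of Emcn, and in 4.718% of all 32851 promoters of the same length. In Emcn it lies on the minus strand and is printed as TGACCTT, which begins at position -153 from the start. The longer form TNAAGGTCA, which contains AAGGTCA, was found in 0 of the 6 and in 1.282% of all promoters. AGGAAG was found in 4 of the 6 (Flt1, Tie1, Eng and Emcn) and in 35.35% of all, and CGGAAG in 1 of the 6 (Tie1) and in 16.85% of all. The Kdr and Tek windows held none of the 4 motifs. These matches describe letters in a window and were not set against binding data.

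The targeted gene followed the labels. The brightest Esrrg probe set (1455267_at) read 58.3, 58.1 and 39.3 on KO arrays, 162, 164 and 162 on HET arrays, and 281, 213 and 206 on WT arrays. Its KO minus WT difference was -1.88 ± 0.19 on the log2 scale (SE, limma, adjusted p = 0.00018), and no arrays of the 3 genotypes overlapped. The other 2 Esrrg probe sets were dim and gave KO minus WT differences of -0.13 and -0.14, neither called. Where each probe set lies relative to the deleted sequence is not stated in the labels.

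One feature of the arrays bears on every comparison. The log2 ratio of the control probe sets thr to dap fell into 2 ranges, from -1.33 to -1.20 on the 3 KO arrays and HET replicates 2 and 3, and from -1.02 to -0.81 on HET replicate 1 and the 3 WT arrays. No label names this partition. Since it divides KO from WT completely, the fit with the partition as a block draws its KO minus WT value from the HET arrays, and such values rest on HET replicate 1. They are given below for a selection of results, and a value given without one may also move under the block.

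Kdr, the main signalling receptor for VEGF-A, was lower in KO ventricles and was the only one of the 10 genes called. Its single probe set (1449379_at) read 666, 623 and 675 on KO arrays, 1095, 881 and 682 on HET arrays, and 1229, 1051 and 1031 on WT arrays. All KO arrays lay below all HET and all WT arrays, and the HET arrays ran from just above the KO range to within the WT range. Mean signals were 655 ± 27.7 in KO, 886 ± 206 in HET and 1104 ± 109 in WT (SD, n = 3 each). KO thus had 59.3% of the WT mean and HET had 80.3%.

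On the log2 scale the KO minus WT difference of Kdr was -0.74 ± 0.14 (SE, 95% interval -1.02 to -0.45, limma adjusted p = 0.0262). Among all 13028 genes 211 were called in this comparison, 1.62%, with 115 of them lower (0.883%) and 96 higher (0.737%). Because Kdr was known to be lower when the genes were chosen, this value is the starting point of the comparison and not new support for it. An exact permutation test on the signals of 3 KO against 3 WT arrays gave a two-sided p of 0.1, the smallest that design allows. The call was lost when any single KO or WT array was left out, with differences between -0.78 and -0.66 and limma adjusted p between 0.0595 and 0.106.

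In HET ventricles the Kdr difference from WT was -0.33 ± 0.14 (SE, limma adjusted p = 0.381), which was not called. HET replicate 1 lay within the WT range and HET replicate 3 close to the KO range. Without HET replicate 1 the difference was -0.50 and passed the threshold (limma adjusted p = 0.0282), as did 574 of the 13028 genes in that fit, against 0 with all arrays. The KO minus HET difference of Kdr was -0.40 ± 0.14 (SE, limma adjusted p = 0.989).

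Among the HET arrays Kdr was highest on replicate 1, which lies on the WT side of the partition. Replicates 2 and 3, both on the KO side, also differed from each other, at 881 and 682. HET replicates 2 and 3 minus HET replicate 1 was -0.49 on the log2 scale for Kdr, with a median of -0.047 over all genes tested. The same difference was negative for 8 of the other 9 endothelial genes, all but Emcn, with a lowest value of -0.39 for Tek and a median of -0.23 over the 9. Within one side of the partition, HET replicate 1 minus WT was -0.0074, and within the other side KO minus HET replicates 2 and 3 was -0.24. With the partition as a block the KO minus WT difference of Kdr was -0.25 ± 0.19 (SE), against -1.89 ± 0.34 (SE) for Esrrg. Neither gene was called in KO minus WT in that fit, so the loss of a call there does not set Kdr apart from the deleted gene. Genotype and partition cannot be told apart for Kdr with a single HET array on the WT side.

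**Figure D1:**
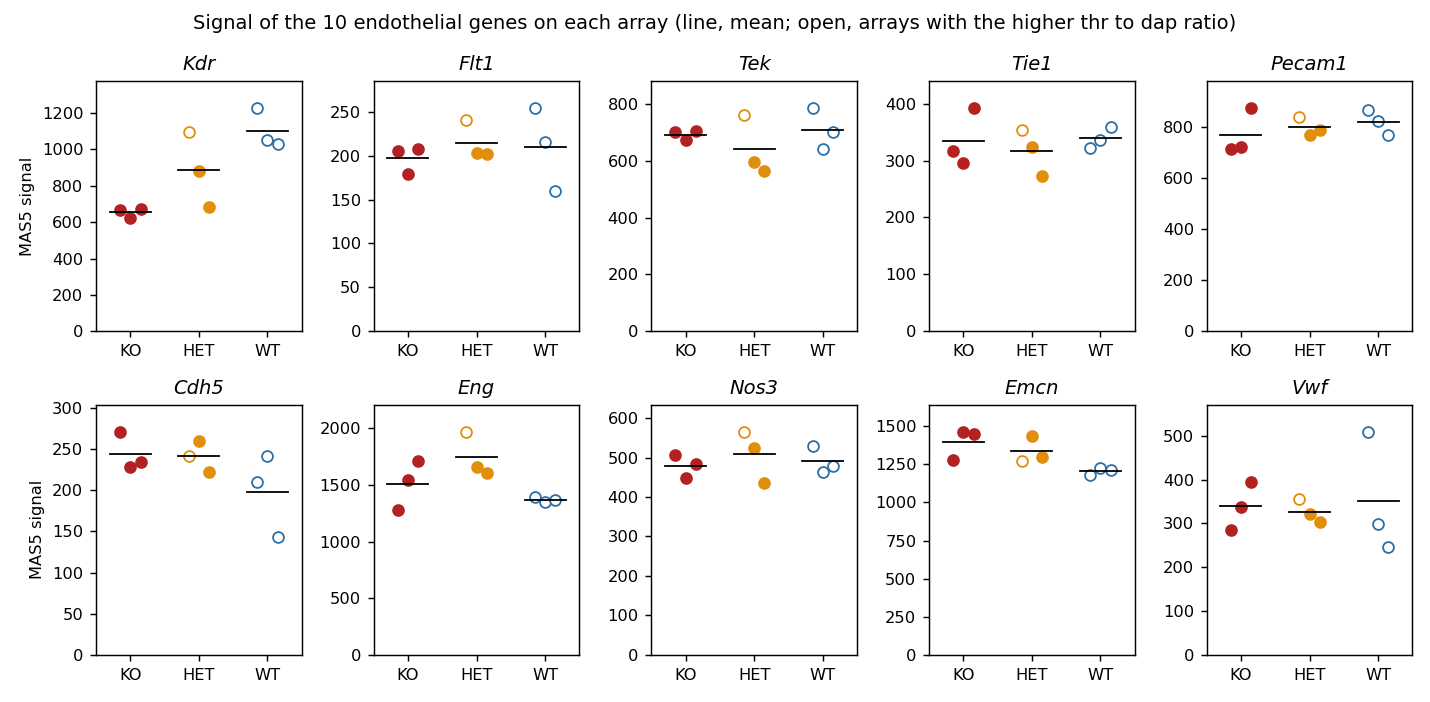
MAS5 signal (linear scale from 0) of each of the 10 endothelial genes on every array, by the brightest probe set, with KO, HET and WT from left to right; lines are genotype means, and open points mark arrays on the side of the partition with the higher thr to dap ratio. The KO arrays of Kdr sit between 623 and 675, below all HET and WT arrays, while the KO and WT arrays of Emcn are the only others that do not overlap.

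Flt1, the second VEGF receptor, which also acts as a trap for VEGF-A, did not share the difference. Its brightest probe set (1451756_at) read 205, 179 and 208 on KO arrays, 240, 203 and 202 on HET arrays, and 255, 215 and 160 on WT arrays. The WT arrays spanned the whole KO range. The KO minus WT difference was -0.06 ± 0.17 (SE, 95% interval -0.41 to 0.29, limma adjusted p = 0.899). The 3 dimmer Flt1 probe sets gave KO minus WT differences of 0.04, -0.04 and -0.08, none called.

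The angiopoietin receptor gene Tek (1418788_at) read 703, 674 and 704 on KO arrays, 764, 596 and 564 on HET arrays, and 788, 642 and 703 on WT arrays. KO values lay inside the WT range, and the lowest 2 values were both HET. Its KO minus WT difference was -0.03 ± 0.12 (SE, limma adjusted p = 0.934). Tie1 (1416238_at), the orphan partner of TIE2, read 317, 295 and 393 on KO arrays, 354, 323 and 273 on HET arrays, and 323, 337 and 358 on WT arrays. The WT range lay within that of KO, and the KO minus WT difference was -0.03 ± 0.14 (SE, limma adjusted p = 0.952).

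The 2 junction genes pointed opposite ways, and neither was called. Pecam1 (1421287_a_at), the platelet and endothelial adhesion molecule also known as CD31, read 713, 722 and 875 on KO arrays, 840, 769 and 789 on HET arrays, and 868, 822 and 770 on WT arrays. KO replicate 3 was the highest of all 9 arrays and the other 2 KO arrays the lowest. Its KO minus WT difference was -0.09 ± 0.10 (SE, limma adjusted p = 0.697).

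Cdh5 (1433956_at), the cadherin of endothelial adherens junctions, read 271, 229 and 234 on KO arrays, 242, 260 and 222 on HET arrays, and 210, 242 and 143 on WT arrays. WT replicate 3 stood low, and the other 2 WT arrays were at 210 and 242. The KO minus WT difference was 0.31 ± 0.17 (SE, 95% interval -0.05 to 0.67, limma adjusted p = 0.378), and 0.11 without WT replicate 3. The second, dimmer Cdh5 probe set (1422047_at) gave -0.07.

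Eng (1417271_a_at) read 1276, 1541 and 1712 on KO arrays, 1971, 1658 and 1604 on HET arrays, and 1392, 1347 and 1365 on WT arrays. All HET arrays were above all WT arrays, while the KO arrays lay on both sides of WT. The HET minus WT difference was 0.34 ± 0.11 (SE, limma adjusted p = 0.312), and the KO minus WT difference was 0.13 ± 0.11 (SE, limma adjusted p = 0.58). Its second probe set (1432176_a_at) gave -0.18 for HET minus WT, so the 2 probe sets of Eng point opposite ways.

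Emcn (1425582_a_at) read 1278, 1465 and 1447 on KO arrays, 1275, 1435 and 1295 on HET arrays, and 1178, 1226 and 1210 on WT arrays. All 3 KO and all 3 HET arrays were above all 3 WT arrays, opposite in direction to Kdr. The KO mean was 116% and the HET mean 111% of the WT mean, with a KO minus WT difference of 0.21 ± 0.09 (SE, limma adjusted p = 0.224). It was not called in either comparison with WT, and with the partition as a block the KO minus WT value was 0.11 ± 0.14 (SE).

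Nos3 (1422622_at) read 506, 449 and 483 on KO arrays, 566, 525 and 434 on HET arrays, and 530, 464 and 479 on WT arrays. The genotypes overlapped, and the KO minus WT difference was -0.03 ± 0.12 (SE, limma adjusted p = 0.928). Vwf (1435386_at) read 285, 337 and 395 on KO arrays, 355, 323 and 303 on HET arrays, and 510, 299 and 247 on WT arrays. WT replicate 1 alone reached 510, and the other WT arrays were among the lowest 3 of the 9. The difference of Vwf between KO and WT was 0.0023 ± 0.20 (SE, limma adjusted p = 0.998), and -0.21 without WT replicate 3 or 0.29 without WT replicate 1.

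Across the 9 genes other than Kdr, 0 were called in KO minus WT by limma, and 1 (Emcn, higher in KO) had an unadjusted p under 0.05, as did 17.2% of all genes tested, 7.91% in the higher and 9.28% in the lower direction. Of the 9, 5 were lower in KO, as were 51.6% of all genes, and their median difference was -0.03, against -0.0092 over all genes. Their differences ran from -0.09 to 0.31. The lowest 95% bound among them was -0.42, for Vwf, so in this fit the Kdr value of -0.74 lay outside the interval of each. The interval of Kdr itself ran from -1.02 to -0.45. Kdr was chosen for its fall, so this is a description and not a test of Kdr against the other genes. With the partition as a block Kdr was at -0.25. That value lay inside the blocked intervals of Flt1, Tie1, Pecam1, Cdh5 and Vwf, and below those of Tek, Eng, Nos3 and Emcn. One of the 9, Emcn, had KO and WT arrays that did not overlap, as did 25% of all genes tested. With the partition as a block all 9 were positive, from 0.01 for Pecam1 to 0.40 for Eng, and 0 were called.

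**Figure D2:**
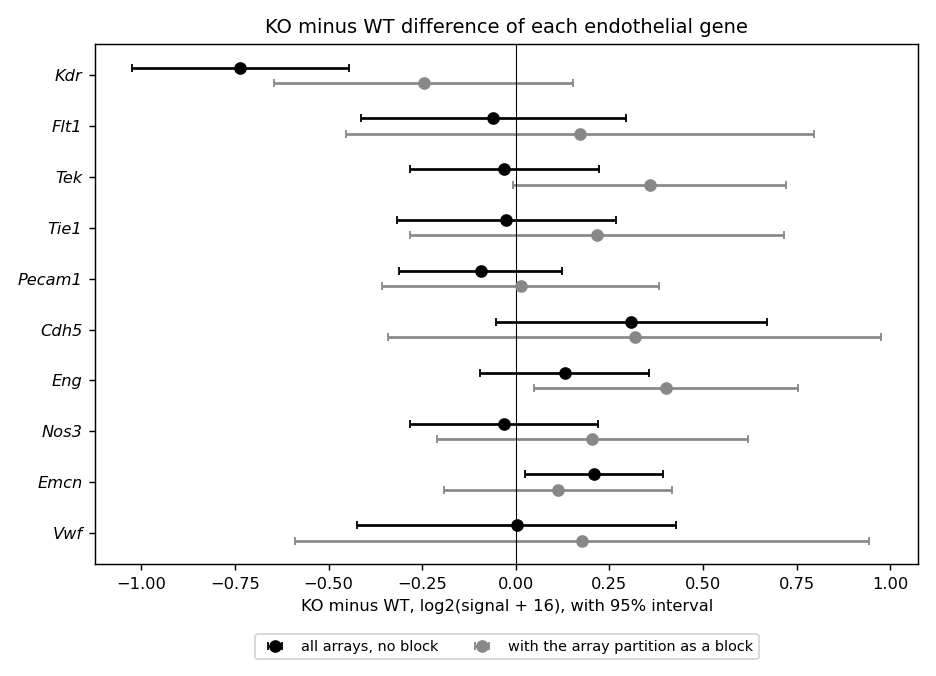
KO minus WT difference on the log2(signal + 16) scale with its 95% interval for the 10 genes, black from all arrays without a block and grey with the array partition as a block. Without the block Kdr lies at -0.74 and the other 9 between -0.09 and 0.31; with it Kdr lies at -0.25 and its interval includes 0.

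By probe set the count was the same. In a fit over 45037 probe sets, 1 of the 15 was called in KO minus WT, that of Kdr (limma adjusted p = 0.0363), against 0.298% of all probe sets and 0.113% called lower. In HET minus WT 0 of the 10 genes were called, and 0 of 13028 overall (0%), by limma. Kdr and Eng were the 2 with an unadjusted p under 0.05, a share of 11.5% over all genes. Among the 9 genes other than Kdr, HET and WT arrays did not overlap for Eng and Emcn, against 13.7% of all genes tested. KO minus HET gave 0 calls among the 10, against 2 among all genes (0.0154%), with only Kdr under an unadjusted p of 0.05 (4.81% over all genes) and only Kdr without overlap (10.5% over all genes).

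As a description, the log2 ratio of Kdr to each of the other 9 genes on the same array was lower on KO than on WT arrays, by differences from -1.04 (against Cdh5) to -0.64 (against Pecam1). Kdr was chosen for its fall and all 9 ratios share its values, so these differences add no test of their own.

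**Figure D3:**
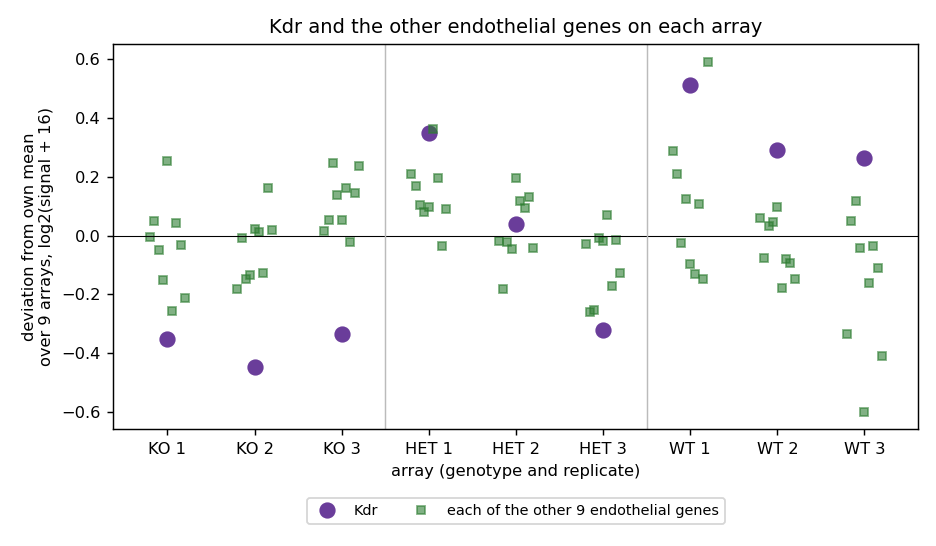
Deviation of Kdr, and of each of the other 9 genes, from the gene's own mean over the 9 arrays, on the log2(signal + 16) scale, array by array with KO, HET and WT from left to right. Kdr lies at -0.45 to -0.33 on KO arrays, -0.32 to 0.35 on HET arrays and 0.26 to 0.51 on WT arrays, while single values of the other 9 lie between -0.26 and 0.25 on KO arrays, -0.26 and 0.36 on HET arrays, and -0.60 and 0.59 on WT arrays.

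Array by array, the deviation of Kdr from its own mean was -0.35, -0.45 and -0.33 on KO arrays, 0.35, 0.04 and -0.32 on HET arrays, and 0.51, 0.29 and 0.26 on WT arrays. Single deviations of the other 9 genes ran from -0.26 (Eng) to 0.25 (Cdh5) on KO arrays, -0.26 (Tek) to 0.36 (Eng) on HET arrays, and -0.60 (Cdh5) to 0.59 (Vwf) on WT arrays. Cdh5 and Vwf thus reached deviations on single WT arrays that were larger than any of Kdr, and on each KO array the 9 genes lay on both sides of 0. These are tissue homogenates, in which fewer endothelial cells and less RNA per endothelial cell cannot be told apart for any of these genes.

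The genes that act around these receptors were followed through 8 pathway lists, and markers of the cell types a ventricle can hold through 10 more. The 18 lists name 167 distinct genes that were tested. In KO minus WT 1 of them was called lower and 2 were called higher by limma, shares near the 0.883% called lower and 0.737% called higher over all genes tested. The ligands and co-receptors of the VEGF receptors gave 0 calls among 8 genes, 5 of them lower, with a median of -0.04. Vegfb, a ligand of FLT1, averaged 2046 ± 117 in KO and 2563 ± 170 in WT (SD, n = 3 each), with a log2 difference of -0.32 (limma adjusted p = 0.0993). With the partition as a block the Vegfb difference was -0.07. Vegfa, the ligand of KDR, gave -0.16 (limma adjusted p = 0.556), and Nrp1, the co-receptor neuropilin-1, gave -0.10 (limma adjusted p = 0.636).

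Angiopoietins and partners of the TIE receptors gave 0 calls among 6 genes, 1 of them lower, with a median of 0.07. Angpt1, the activating ligand of TIE2, averaged 199 ± 29.0 in KO, 131 ± 16.2 in HET and 119 ± 4.76 in WT (SD, n = 3 each). Its KO minus WT difference was 0.66 ± 0.17 (SE, limma adjusted p = 0.0582), just short of the threshold, and 0.47 with the partition as a block. The endoglin pathway gave 0 calls among 12 genes, 4 of them lower, with a median of 0.13. Id2, an inhibitor of basic helix-loop-helix factors, gave 0.31 (limma adjusted p = 0.175) and Bmpr2, a type 2 BMP receptor, 0.31 (limma adjusted p = 0.292). The blocked values were 0.41 for Id2 and -0.09 for Bmpr2.

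Junction partners gave 0 calls among 9 genes, 7 of them lower, with a median of -0.13. Ctnnd1, the p120 catenin that binds VE-cadherin, gave -0.19 (limma adjusted p = 0.318), and 0.04 with the partition as a block. Partners of endothelial nitric oxide synthase gave 0 calls among 8 genes, 4 of them lower, with a median of 0.03. Ddah2, which breaks down a natural inhibitor of nitric oxide synthase, gave -0.21 (limma adjusted p = 0.289), and 0.05 with the partition as a block. Genes of the Weibel-Palade body and of haemostasis gave 0 calls among 8, with 0 of them lower and a median of 0.23. Tfpi, the tissue factor pathway inhibitor, gave 0.33 (limma adjusted p = 0.157), and 0.0052 with the partition as a block.

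Endothelial transcription factors gave 0 calls among 22 genes, 10 of them lower, with a median of 0.01. Sox18, a SOX factor of vascular development, averaged 983 ± 109 in KO and 1275 ± 96.5 in WT (SD, n = 3 each), with a log2 difference of -0.37 ± 0.10 (SE, limma adjusted p = 0.078). Hey2, a Notch target also made in ventricular heart muscle, gave 0.86 ± 0.21 (SE, limma adjusted p = 0.0542), and -0.24 with the partition as a block. Klf2, a flow-responsive factor, gave -0.36 (limma adjusted p = 0.159), whereas the blocked value was 0.03.

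Other endothelial surface genes gave 1 call among 27, with 13 of them lower and a median near 0, at 0.0013. At an unadjusted p under 0.05 (limma) 6 of the 27 were lower and 2 higher. The shares over all genes were 9.28% lower and 7.91% higher. The called gene was Efnb2, which encodes ephrin-B2, a ligand of arterial endothelium. Its brightest probe set (1419639_at) read 259, 266 and 258 on KO arrays, 299, 332 and 357 on HET arrays, and 362, 437 and 424 on WT arrays. KO arrays were the lowest and WT arrays the highest, with HET between and no overlap.

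The KO minus WT difference of Efnb2 was -0.61 ± 0.12 (SE, limma adjusted p = 0.0317), and -0.81 ± 0.21 (SE, not called) with the partition as a block. Its other 3 probe sets gave -0.49, 0.18 and 0.12, none called, and the mean over its probe sets gave -0.20. Its call was lost without any 1 of the KO arrays or without WT replicate 2 or 3 (limma adjusted p up to 0.136). Gja5, the gap junction protein connexin 40 of arterial endothelium and conduction tissue, gave -0.76 ± 0.26 (SE, limma adjusted p = 0.138). Tmem100, a BMP target in arterial endothelium, gave 0.59 ± 0.19 (SE, limma adjusted p = 0.114). The blocked values were -0.28 for Gja5 and 0.24 for Tmem100.

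Among endothelial subtypes, capillary markers gave 0 calls among 7 genes with a median of -0.09, endocardial markers 0 among 5 with a median of 0.13, and lymphatic markers 0 among 5 with a median of -0.01. Lower in KO were 6 capillary, 0 endocardial and 3 lymphatic markers, against 51.6% of all genes. With the partition as a block these counts were 6, 2 and 3. The summed signal of the 7 capillary markers ran from 22729 to 23350 on KO arrays, 21987 to 24414 on HET arrays and 21864 to 24601 on WT arrays. KO arrays thus lay inside the WT range for this sum. Fabp5, the 1 capillary marker higher in KO, averaged 7211 in KO and 6078 in WT and is a large part of it. The sum therefore does not show the direction of the other 6. The summed signal of the 5 endocardial markers ran from 1416 to 1527 on KO arrays, 1283 to 1340 on HET arrays and 1168 to 1434 on WT arrays.

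Cardiomyocyte markers gave 0 calls among 11 genes, 8 of them lower, against 51.6% of all genes, with a median of -0.14. At an unadjusted p under 0.05 (limma) 6 of the 11 were lower and 1 higher. The shares over all genes were 9.28% lower and 7.91% higher. The summed signal of the 11 ran from 189819 to 206146 on KO arrays, 187973 to 212876 on HET arrays and 208828 to 220130 on WT arrays. KO and WT did not overlap in that sum, nor did they for 25% of single genes tested. With the partition as a block the median over the cardiomyocyte markers was 0.0064. The part of cardiomyocyte RNA in the Kdr difference was not tested.

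Fibroblast markers gave 1 call among 8 genes, 1 of them lower, with a median of 0.18. At an unadjusted p under 0.05 (limma) 4 of the 8 were higher and 0 lower. The shares over all genes were 7.91% higher and 9.28% lower. With the partition as a block 0 of the 8 were lower, and the median was 0.23. The called gene was Lum, the collagen-binding proteoglycan lumican, which averaged 2301 ± 163 in KO and 1824 ± 98.1 in WT (SD, n = 3 each; log2 difference 0.33, limma adjusted p = 0.0482). That call was lost without any single array other than HET replicate 1 (limma adjusted p up to 0.164). It was also lost with the replicate number (limma adjusted p = 0.071) or the partition as a block. With the partition as a block the difference of Lum was 0.34 ± 0.13 (SE). Mural and smooth muscle markers gave 0 calls among 9 with a median of 0.13, and epicardial markers 0 among 6 with a median of -0.02. Platelet and megakaryocyte markers gave 0 calls among 6 with a median of 0.10, and leukocyte and macrophage markers 0 among 9 with a median of 0.10.

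Erythroid markers gave 1 call among 3, with a median of 0.14. Hbb-b2, a beta globin of red blood cells, averaged 538 ± 77.1 in KO, 392 ± 119 in HET and 251 ± 39.5 in WT (SD, n = 3 each), with a log2 difference of 1.05 (limma adjusted p = 0.0211) and 0.49 with the partition as a block. The call of Hbb-b2 was lost without KO replicate 2 or 3 or WT replicate 2 or 3 (limma adjusted p up to 0.0937), and with the mean of probe sets (0.79, limma adjusted p = 0.172). Alas2, the erythroid enzyme of haem synthesis, gave 0.14 (limma adjusted p = 0.715). Globin genes are near-identical copies, so probe sets may not tell them apart. The part of these markers in the endothelial values was not tested.

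**Figure D4:**
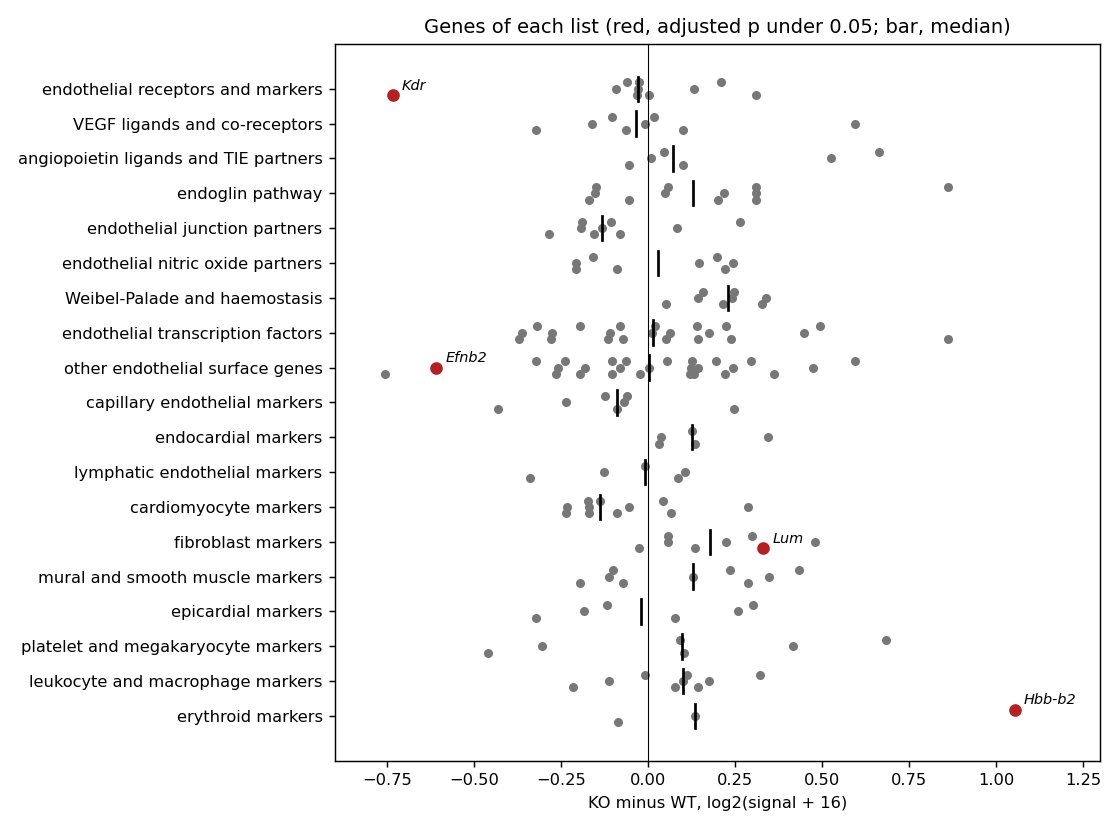
KO minus WT difference on the log2(signal + 16) scale of each tested gene (points) and the median (line) of the 10 endothelial genes and of the 18 lists. The median of each list lies between -0.14 and 0.23, and the called genes are Kdr among the 10 and Efnb2, Lum and Hbb-b2 among the lists.

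The genes whose profile over the 9 arrays was nearest to that of Kdr were not members of the endothelial set. Likeness was the root mean square distance between centred log2 profiles, over 13027 genes. The nearest were 1500015A07Rik at 0.099, 9130001E16Rik at 0.099, Tbc1d10c at 0.13, Agtr1a at 0.13 and Scap at 0.13. The first 3 were dim, with KO means of 41.7, 17.6 and 53.2, and were not called (limma adjusted p = 0.199, 0.302 and 0.12). Agtr1a encodes an angiotensin II receptor and Scap the escort protein of sterol-regulated transcription factors.

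Agtr1a averaged 367 ± 36.4 in KO, 458 ± 56.7 in HET and 589 ± 51.1 in WT (SD, n = 3 each), with a KO minus WT difference of -0.66 (limma adjusted p = 0.0262) and -0.39 with the partition as a block. Scap averaged 390 ± 47.6 in KO, 495 ± 70.4 in HET and 603 ± 22.3 in WT (SD, n = 3 each), with a difference of -0.62 (limma adjusted p = 0.032) and a blocked value of -0.35. With the mean of probe sets Scap gave -0.38 (limma adjusted p = 0.354). Both calls were lost without any 1 of the KO or WT arrays (limma adjusted p up to 0.125 for Agtr1a and 0.141 for Scap). The other 9 endothelial genes ranked between 1952 (Nos3) and 8868 (Cdh5) in likeness to Kdr, and Esrrg ranked 10498. The profiles were centred but not scaled, so the distance also counts the size of a change. Esrrg means had the same order as those of Kdr (51.9 in KO, 163 in HET and 233 in WT). Its KO minus WT difference was larger, at -1.88, so its rank does not describe the order of the genotypes. These distances describe 9 arrays that share genotype and partition. Agtr1a and Scap were picked for their likeness to Kdr on these same arrays, and Kdr was chosen for its fall. Their lower KO values follow from that choice, so their differences and calls add no test of their own.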

How the data were processed

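Total RNA of 9 ventricle samples was hybridised to Affymetrix mouse arrays, 1 array per sample. Per the submitters' processing notes, the authors used MAS5, of unstated version, which gives each probe set a linear intensity from its probe pairs. Each deposited column has a trimmed mean of 200, so arrays were scaled but not otherwise normalized to each other. Array medians were 36.6 to 45.9. Detection calls were not used here.

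Probe sets took the gene symbol of the platform annotation; 34741 symbols could be brought up to date from RefSeq by gene ID and 204 stayed as they were. Genes with a mean log2 under the 40th percentile (5.24, a signal of 21.7) were left out, which leaves 13028 and keeps all 10 members. The log scale with a pseudocount of 16 understates changes of dim genes. All 9 arrays entered 1 fit (limma 3.58.1 in R 4.3.3, lmFit and eBayes with an intensity trend), with no block, and Benjamini-Hochberg adjustment over all genes; the code was tested on simulated data. Python 3.11.15 and matplotlib 3.10.9 did the rest.

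Members and lists were chosen with earlier results of these data known. Genes named are Esrrg, the 10 members, from each list up to 4 genes of smallest KO minus WT p plus each called gene, and the 5 genes nearest to Kdr; the text gives a selection of them. Other normalizations, pseudocounts, filters, probe set rules, fits, blocks and left-out arrays were tried. The array number limits the precision.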

Additional observations from a re-analysis of the deposited data

How the results depend on the processing

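The difference of Kdr between KO and WT kept its direction under every alternative run, from -0.78 to -0.25. Its adjusted p (limma) passed the threshold with quantile normalization, pseudocounts of 1 and 64, no filter or one at the 60th percentile, only the 6 arrays compared, and each HET array left out. It missed it with arrays shifted to one median (0.0613), the mean of probe sets (0.0534), no intensity trend (0.204), the partition as a block (0.882) and each KO or WT array left out. The count of the 10 genes called was then 0, and 0 of the 15 probe sets were called with shifted medians, a pseudocount of 64, no intensity trend or the partition as a block. With single arrays left out, the counts ran from 0 to 1 for genes in KO minus WT, for probe sets in KO minus WT and for genes in HET minus WT. The 9 genes other than Kdr were called in 0 of 567 values over these alternatives. Calls among all genes in KO minus WT were 211, against 24 with shifted medians, 85 with no filter, 7 with the mean of probe sets, 6 without the trend, 773 with only the 6 arrays, 127 with the replicate block, 1 with the partition as a block and 10 to 840 with single arrays left out. The calls of Efnb2, Lum, Agtr1a and Scap were lost with shifted medians, those 4 and that of Hbb-b2 with the mean of probe sets, no trend and the partition as a block, and that of Lum also with a pseudocount of 1, no filter and the replicate block.

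Replicate numbers did not pair the samples, as same-numbered deviations correlated at -0.043 to 0.046 across genes. With the replicate number as a block, Kdr in KO minus WT was -0.74 ± 0.12 (SE, limma adjusted p = 0.0216), still 1 of 10 genes called.

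Leaving out HET replicate 1 and WT replicate 3 together, chosen after seeing the data, gave 1 call in HET minus WT (Kdr, -0.54, limma adjusted p = 0.0461), where 230 of all 13028 genes were called. It put KO minus WT of Vwf at -0.21 and of Tie1 at 0.013, HET minus WT of Flt1 at -0.20 and of Nos3 at -0.052, and KO minus HET of Nos3 at 0.0033.

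Some small differences changed sign, none of them called. KO minus WT of Vwf was -0.045 with quantile normalization and -0.0031 with a pseudocount of 64. Shifted medians gave KO minus WT of 0.0035 for Tek, 0.0085 for Tie1 and 0.0019 for Nos3, HET minus WT of -0.0013 for Nos3, and KO minus HET of 0.021 for Pecam1 and 0.0032 for Nos3. The mean of probe sets gave -0.15 for Cdh5 in KO minus HET. The partition as a block gave KO minus WT of 0.17 for Flt1, 0.36 for Tek, 0.22 for Tie1, 0.01 for Pecam1 and 0.20 for Nos3. It gave HET minus WT of 0.11 for Tek, 0.061 for Tie1, 0.036 for Pecam1 and 0.079 for Vwf, and KO minus HET of 0.0033 for Nos3.

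With single arrays left out, or that pair, KO minus WT ran from -0.23 to 0.082 for Flt1, -0.10 to 0.044 for Tek, -0.14 to 0.057 for Tie1, -0.071 to 0.023 for Nos3 and -0.21 to 0.29 for Vwf. HET minus WT ran from -0.20 to 0.19 for Flt1, -0.11 to 0.0054 for Pecam1, -0.052 to 0.15 for Nos3 and -0.31 to 0.25 for Vwf. KO minus HET ran from -0.040 to 0.16 for Tie1, -0.054 to 0.071 for Cdh5, -0.18 to 0.0033 for Nos3 and -0.072 to 0.15 for Vwf. The cause of these changes was not tested.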

Other observations

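Of the 3 genes on each side of Kdr in RefSeq gene order (GRCm38.p6), taken after the values of the endothelial genes were seen, 0 were called in KO minus WT by limma and 1, Pdgfra, had an unadjusted p under 0.05, against 1.62% and 17.2% of all genes tested. Pdgfra, the platelet-derived growth factor receptor of fibroblasts, gave a log2 difference of 0.48 (limma adjusted p = 0.0669), and Kit, the stem cell factor receptor next to Kdr, gave -0.19 (limma adjusted p = 0.799). Gsx2, a homeobox gene on that side, gave -0.41 ± 0.40 (SE, limma adjusted p = 0.654), and -0.36 in HET minus WT. On the other side Srd5a3 gave 0.09, Tmem165 0.07 and the circadian gene Clock 0.20.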
